A study of Mus musculus with 8 samples.

Results

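The Zfp608 locus of the mouse genome carried a long series of OTX2 peaks in embryonic subpallium. It was taken as the interval from 54800000 to 56200000 on chromosome 18 (mm9), and every peak whose centre lay in these 1.4 Mb was a member. The interval held 79 of the 26317 peaks deposited over all libraries. The interval was chosen by the number of sites that recurred between the OTX2 lists, so that number is given as a description and was not tested. Ranks, widths, positions and spacing were described beside the same values over the whole lists.

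The 8 libraries came from 1 chromatin immunoprecipitation sequencing study of E12.5 mouse embryos, all wildtype and of the CD-1 strain. Tissue of several embryos was pooled per sample, and the dissection combined the septum with the medial and lateral ganglionic eminences, the swellings of the ventral forebrain that form the basal ganglia. Antibody against OTX2 was used in 3 libraries, normal goat IgG in 2, and 3 were input chromatin that had not been precipitated. No treated or mutant animals were among them, and pooled dissections cannot assign a peak to any of the 3 structures. Whether separate litters were used for the 3 experiments is not stated in the labels.

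OTX2 belongs to the bicoid type of homeodomain transcription factors and is needed for the formation of the forebrain and midbrain. Transcription factors of this kind often occupy several enhancers spread over long gene-poor stretches beside a single developmental gene. Zfp608 encodes a zinc finger protein of the nucleus, known in mouse thymocytes as a repressor of the recombination activating genes. It is transcribed towards lower coordinates, so its promoter lies at its upper end and the upstream side is the side of higher coordinates. In the RefSeq gene order of GRCm38 its next protein-coding neighbours are Csnk1g3, a casein kinase 1 gene, on the lower side and Gramd3, which encodes a GRAM domain protein, on the upper side. That table lists 17 entries between Zfp608 and Gramd3, of which 10 are long non-coding RNAs, 6 pseudogenes and 1 another non-coding RNA. Between Zfp608 and Csnk1g3 it lists 13, of which 8 are long non-coding RNAs. The nearest entries are the long non-coding RNAs Gm33732 below the gene and Gm4221 above it. No mm9 annotation was used here. The gene was placed by its rounded limits of 55.05 and 55.15 Mb, and a site with an edge within 10 kb of such a limit was counted as lying at the limit, neither inside nor outside. The peak lists hold no expression values, so neither the level of Zfp608 nor the markers of the tissue could be examined.

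The interval held 11 of 1848 peaks of OTX2 replicate 1 (0.595%, exact Clopper-Pearson 95% interval 0.297 to 1.06%). It held 10 of 1298 peaks of replicate 2 (0.770%, 0.370 to 1.41%) and 56 of 22325 peaks of replicate 3 (0.251%, 0.190 to 0.326%). These intervals cover counting error only, and read depth is unknown because the lists carry no read totals. Replicate 3 therefore contributed most peaks in number but the smallest percentage of its list. The density was 7.86 peaks per Mb in replicate 1, 7.14 in replicate 2 and 40 in replicate 3, against 0.7003, 0.492 and 8.46 per Mb over the genome extent spanned by the lists. That is 11.2, 14.5 and 4.73 times the average of each list. Input replicates 2 and 3 had 1 peak each in the interval, and input replicate 1 and both IgG libraries had none. That single peak was 0.704% (0.0178 to 3.86%) of the list of input replicate 2 and 0.426% (0.0108 to 2.35%) of that of input replicate 3. The control lists are short, and these 2 shares lay within the range of the 3 OTX2 lists, 0.251 to 0.770%. OTX2 replicate 3 and input replicate 3 were named in another way than the other 6 lists in their header lines, so the peak calling of that experiment may have differed. Its list is by far the longest, and counts that rest on it are also given without it.

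Peaks of the 3 OTX2 lists that shared at least 1 bp were merged into 56 sites. Of these, 12 contained peaks of at least 2 OTX2 libraries and no control peak, and they are called shared sites here. Over the genome 8.61% of merged sites met that condition, but the interval was chosen for it. All 3 libraries contributed to 9 of the 56, a condition met by 3.49% of merged sites over the genome. These 9 were 75% of the interval's shared sites, and over the genome sites in all 3 libraries were 40.5% of shared sites. Another 2 were found in replicates 1 and 3 and 1 in replicates 2 and 3. Each of the 21 peaks of replicates 1 and 2 in the interval lay in a replicate 3 peak. Over the whole lists, replicate 3 overlapped 87.9% of replicate 1 peaks and 92.1% of replicate 2 peaks, so this was common everywhere. Without replicate 3, replicates 1 and 2 still shared 9 sites, with a median spacing of 34.3 kb and none of them below the gene. The remaining 44 sites each consisted of 1 replicate 3 peak, and 1 of these overlapped an input peak.

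**Figure D1:**
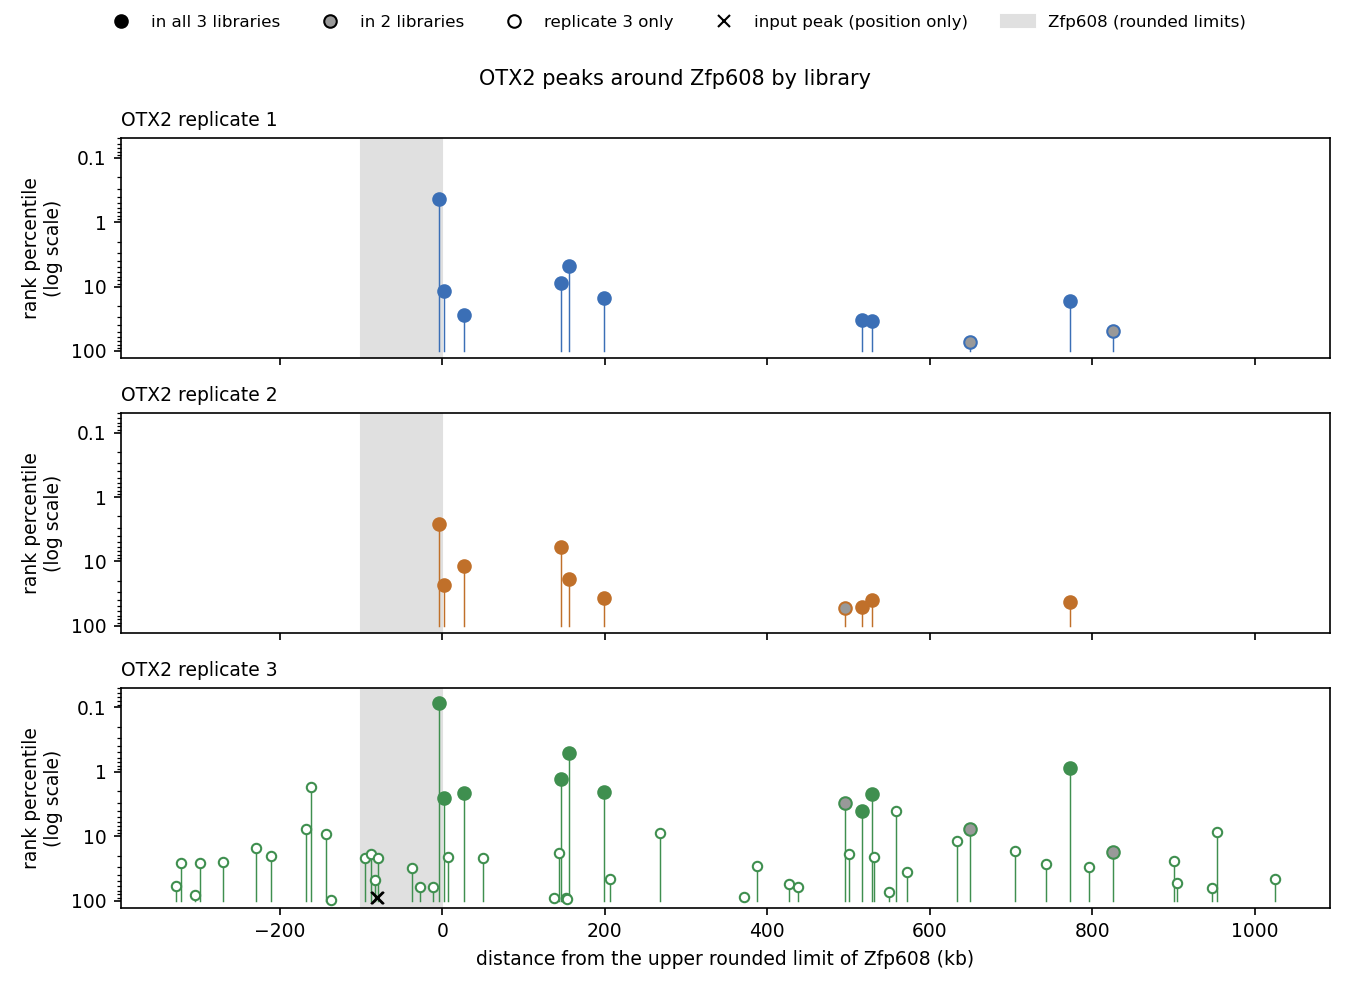
Every OTX2 peak in the interval by library. The horizontal axis is the distance in kb of its site from the upper rounded limit of Zfp608 (grey band, the gene), and the vertical axis is the rank as a percentile of its own list on a log scale, best-ranked at the top. Filled circles are sites in all 3 libraries, grey ones sites in 2 and open ones replicate 3 peaks found in no other library, and crosses mark the positions of the 2 input peaks. The 12 shared sites all lie above the upper limit of the gene or within 10 kb of it, and the 11 sites below the gene are open circles. The interval reaches much farther above the gene than below it.

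The shared sites lay at the upper end of the gene or above it. The upper limit of Zfp608, its promoter end, had 2 of the 12, and the stretch above it had the other 10. Of these 2, 1 had its centre 4.36 kb inside the rounded limit, within the 10 kb allowed for rounding. None of the 12 lay among the 6 sites within the gene limits, the 1 site at the lower limit or the 11 sites below the gene. Replicate 3 had peaks on both sides, with 35 sites above the gene and 3 at its upper limit. The part of the interval below the gene runs from 54.8 to 55.05 Mb, and the part above it from 55.15 to 56.2 Mb. Counts of shared sites and of all sites below and above the gene thus come from stretches of unlike length and are not densities. The median rank of the replicate 3 peaks was 5670 for the 11 sites below the gene, 8810 for the 6 within it and 4772 for the 35 above it. The 35 include the 10 shared sites, which the other 2 sets lack, so these medians compare unlike sets. The absence of shared sites below the gene holds within the interval and not beyond it. Just outside the lower edge, 27.5 kb below it and 277.5 kb below the gene, lay a site from 54771887 to 54773044. It was found in all 3 libraries, with ranks 644, 1050 and 799 in replicates 1, 2 and 3. Another shared site, from 54611655 to 54613581, lay 437.4 kb below the gene. It was ranked 669 in replicate 1 and 1228 in replicate 3, with no replicate 2 peak. On the other side the next shared site lay 148.8 kb above the upper edge. The outermost replicate 3 peaks inside the interval lay 22.0 kb from the lower and 24.6 kb from the upper edge, and the nearest outside lay 8.96 and 8.38 kb from the edges.

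The best-ranked site of the interval lay at the promoter end of Zfp608. It ran from 55144660 to 55146626, with its centre 4.36 kb inside the rounded upper limit, and was ranked 8 in replicate 1, 34 in replicate 2 and 19 in replicate 3. These ranks put it in the best 0.433% of replicate 1, 2.62% of replicate 2 and 0.0851% of replicate 3. By mean rank percentile it was 19th of the 789 sites found in all 3 libraries over the genome. Percentiles depend on list length, and the replicate 3 list is by far the longest. Among the 789 the median percentile was 27.27 in replicate 1, 35.05 in replicate 2 and 2.04 in replicate 3. Places by mean percentile therefore rest mostly on replicates 1 and 2. A second site followed 5.68 kb higher, from 55149120 to 55153516, across the rounded limit itself. Its ranks were 219, 300 and 569 in replicates 1, 2 and 3. The third, from 55174424 to 55177477, lay 25.95 kb above the limit and was ranked 518, 153 and 479. All 3 libraries thus had these 3 sites, which spanned 32.8 kb around and above the start of the gene.

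After a stretch of 120.4 kb without a shared site, 3 further sites lay 146 to 199.5 kb above the gene. The site from 55295591 to 55297190 was ranked 160, 79 and 289 in replicates 1, 2 and 3. Next to it, 9.94 kb higher, the site from 55305329 to 55307328 was ranked 88, 248 and 114. The last of them, from 55347948 to 55351003, was ranked 279, 478 and 464. Each of these 3 was present in all 3 libraries. By mean rank percentile the first and second of them were 90th and 132nd of the 789, behind only the site at the promoter end among the interval's own.

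The widest gap between neighbouring shared sites, 295.9 kb, followed. Beyond it 3 sites lay within 35.5 kb, from 495 to 529 kb above the gene. The first, from 55644547 to 55646162, had rank 690 in replicate 2 and 675 in replicate 3 and no peak in replicate 1. The second, from 55665982 to 55667597, was ranked 616, 661 and 903 in replicates 1, 2 and 3. The third, from 55678575 to 55680079, was ranked 639, 525 and 497. By mean rank percentile the third and the second were the lowest of the 9 sites in all 3 libraries, at places 443 and 506 of the 789.

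Another 3 shared sites lay farther apart, 649, 773 and 826 kb above the gene. The site from 55798006 to 55800776 was ranked 1355 in replicate 1 and 1738 in replicate 3, with no replicate 2 peak. The site from 55921368 to 55925127 was present in all 3 libraries, with ranks 315, 549 and 195. The last, from 55974907 to 55976765, was ranked 893 in replicate 1 and 3960 in replicate 3, again with no replicate 2 peak. Thus 2 of the 3 sites that missed a library were among the most distant 3. Across the 12 sites the rank in replicate 3 increased with distance above the gene, that is, more distant sites were placed lower, with a Spearman rho of 0.54. The site at 773 kb departed from that order, since only the sites at the promoter end and 156 kb above the gene had better replicate 3 ranks. This correlation describes 12 sites of 1 locus and was not tested.

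The 12 sites spanned 832.1 kb and together covered 29.2 kb of it. Neighbouring centres were between 5.68 and 295.9 kb apart, with a median of 43.1 kb over 11 spacings. For 9 of the 12 another shared site lay within 50 kb, against 24.8% of the 1949 shared sites over the genome. The median distance to the nearest shared site was 17.0 kb in the interval and 193.5 kb over the genome. These distances follow from the density for which the interval was chosen. The peaks of replicate 3 alone were spaced by a median of 16.3 kb in the interval and 47.7 kb over its whole list.

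The ranks of the shared sites agreed in order between libraries about as they did over the genome. Spearman's rho was 0.73 between replicates 1 and 2 (9 sites), 0.85 between replicates 1 and 3 (11 sites) and 0.67 between replicates 2 and 3 (10 sites). Over all shared sites the values were 0.66, 0.77 and 0.78. The median rank of the interval's shared sites was 315 in replicate 1, 389 in replicate 2 and 488 in replicate 3. Over all shared sites the medians were 856.5, 617 and 1112, so the interval's sites were placed higher in each list. Among sites found in all 3 libraries the medians were 279, 300 and 464 in the interval, against 504, 455 and 456 over the genome. For replicate 3 that difference was thus no longer seen. Sites of 1 locus are not replicates, and these medians were not tested.

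**Figure D2:**
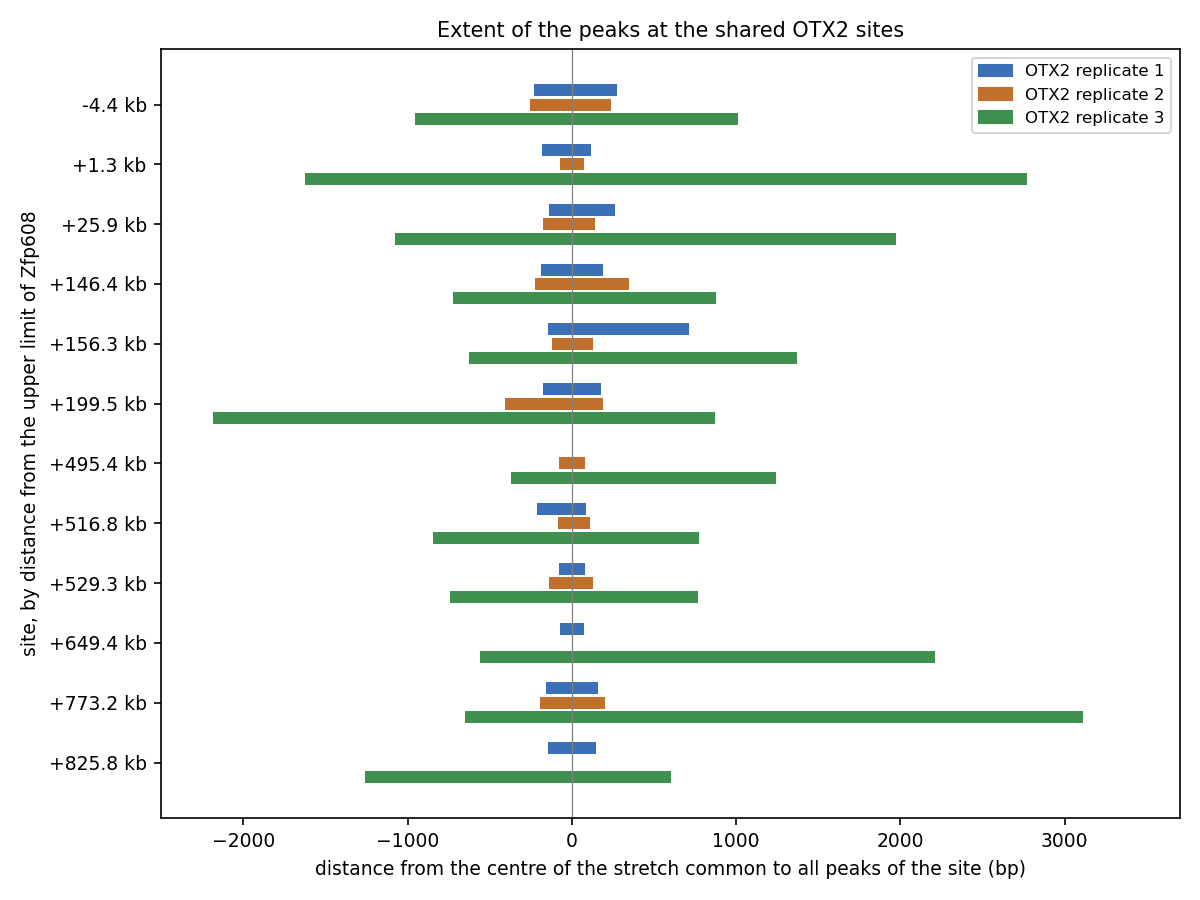
Extent of each library's peak at the 12 shared sites. Bars span each peak in bp from the centre of the stretch common to all peaks of the site, 1 row per site by its distance from the upper limit of Zfp608. The narrow peaks of replicates 1 and 2 lie within wide replicate 3 peaks, and at 773 kb they lie near 1 end of it.

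The narrow peaks of replicates 1 and 2 placed the sites more closely than the wide peaks of replicate 3. In the interval the median peak was 319 bp wide in replicate 1 (150 to 858 bp), 290.5 bp in replicate 2 (145 to 593 bp) and 1283 bp in replicate 3 (475 to 4847 bp). The whole lists had medians of 191, 182 and 827 bp. At the 9 sites common to replicates 1 and 2, their peak centres were a median of 59.5 bp apart (3 to 281 bp). Centres of replicate 3 peaks lay a median of 328 bp from those of replicate 1 (11 sites, up to 1228 bp) and 403.2 bp from those of replicate 2 (10 sites, up to 1224 bp). The stretch shared by every peak of a site was between 145 and 469 bp long, with a median of 263.5 bp. At the promoter end that stretch ran from 55145383 to 55145851, and at the site 773 kb above the gene from 55921861 to 55922179. In the latter the centres of replicates 1 and 2 were 3 bp apart, while they lay 1228 and 1224 bp from the centre of the replicate 3 peak.

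The 44 sites of replicate 3 alone were placed lower in its list than the interval's shared sites, whose median rank was 488. They ran from rank 386 to 21626 with a median of 5980. Among them 6 belonged to the best-ranked 10% of that list and 14 to its worse-ranked 50%. Over the whole list, replicate 1 or 2 overlapped 1971 of 22325 peaks, and 1441 of the 2232 in the best-ranked 10%. Of the peaks of replicate 3 alone, a smaller share than in the interval therefore belonged to that 10% over the whole list. This was not tested. The best-ranked of the 44 lay below the gene, from 54987334 to 54989204 and 61.7 kb from its lower limit, with rank 386. Of the 386 replicate 3 peaks ranked as high or higher, 6 (1.55%, exact 95% interval 0.573 to 3.35%) were overlapped by neither replicate 1 nor replicate 2, and this peak was 1 of the 6. It overlapped no control peak, and the nearest shared site of the interval was 157.4 kb away. Its neighbour from 54980305 to 54983398 was ranked 1739, also in replicate 3 alone, as were 26.2% (24.2 to 28.4%) of the replicate 3 peaks placed as high or higher. The peak from 55705808 to 55709992, 557.9 kb above the gene, was ranked 902. In rank it came directly before the shared site at 517 kb, which had rank 903, and its nearest shared site lay 28.6 kb away. Of the 902 replicate 3 peaks placed as high or higher, 8.76% (6.99 to 10.8%) were in no other OTX2 list. These shares count all peaks from rank 1 and rose down the list, so they are not the shares at the given ranks.

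Both control peaks of the interval lay within the gene and close together. Input replicate 2 had a peak from 55069328 to 55069472, ranked 70 of 142, and input replicate 3 had a peak from 55070470 to 55070643, ranked 85 of 235. The second overlapped a replicate 3 OTX2 peak from 55070516 to 55071589, ranked 4849, by 128 bp. That OTX2 peak was the only one of the 56 sites with a control peak (over the genome 0.42% of merged sites had one). The nearest shared site lay 76.2 kb from the first and 75.1 kb from the second.

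**Figure D3:**
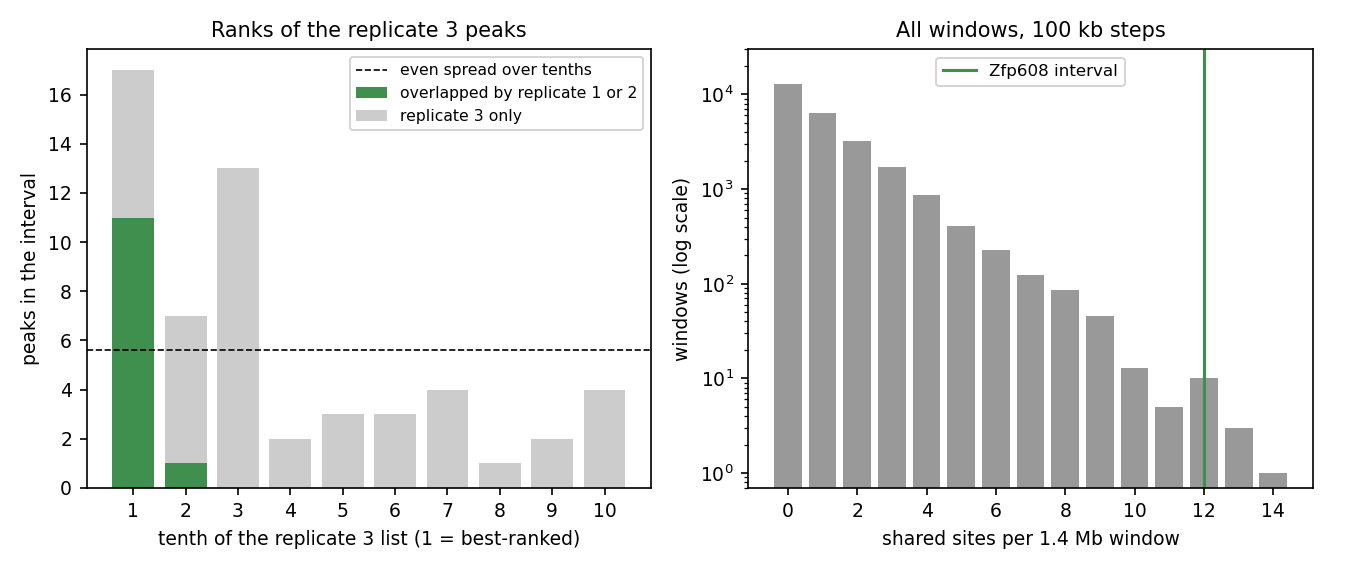
Left, number of replicate 3 peaks of the interval in each successive 10% of that list, with the part overlapped by replicate 1 or 2 in green and the number an even spread would give as a dashed line. Right, number of 1.4 Mb windows over the genome (100 kb steps, log axis) by their number of shared sites, with the interval at 12 marked. The best-ranked 10% holds 17 peaks, 11 of them green, and the windows with 13 or 14 sites overlap the interval itself.

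Ranks in replicate 3 were spread unevenly. Of its 56 peaks in the interval 17 (30.4%, 18.8 to 44.1%) belonged to the best-ranked 10% of the list and 13 (23.2%, 13.0 to 36.4%) to the 10% that followed the best-ranked 20%. Of the 17, replicates 1 or 2 overlapped 11 (64.7%), and over the whole list 64.6% of the best-ranked 10% were overlapped. In the next 10% it was 1 of 7 in the interval, against 13.7% over the list. Taken over all ranks, 12 of 56 replicate 3 peaks in the interval were overlapped, against 8.83% of the list. These overlaps belong to the values by which the interval was chosen and were not tested.

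Whether the interval was the densest depended on what was counted. Shared sites were counted in 26071 windows of 1.4 Mb that did not overlap the interval. None held more than 12, and 5 held as many, all of them in 1 stretch of chromosome 3 from 33900001 to 35700000. Moved down by 200 kb, to 54600001 to 56000000, the window on chromosome 18 held 14 shared sites, 10 of them in all 3 libraries. When sites with a control peak were kept, windows in 1 stretch of chromosome 2 from 76500001 to 79100000 held more than the interval, up to 13. For sites in all 3 libraries the interval's 9 compared with at most 7 elsewhere, on chromosome 2 from 37100001 to 38500000, whether sites with control peaks were left out or kept. Among single lists the order was different. In replicate 3, windows in 2 stretches held more than the interval's 56 peaks, up to 65 on chromosome 5 from 111300001 to 112700000. In replicates 1 and 2, 1 stretch of chromosome 2 from 76400001 to 79100000 had more, up to 31 and 29 peaks, and it did not once peaks overlapping a control peak were left out. Without those peaks no window held more than the interval's 11 peaks in replicate 1 or 10 in replicate 2, and windows in 2 other stretches held as many in each. In replicate 3 the interval then had 55 peaks, and windows in 3 stretches held more, again up to 65.

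**Figure D4:**
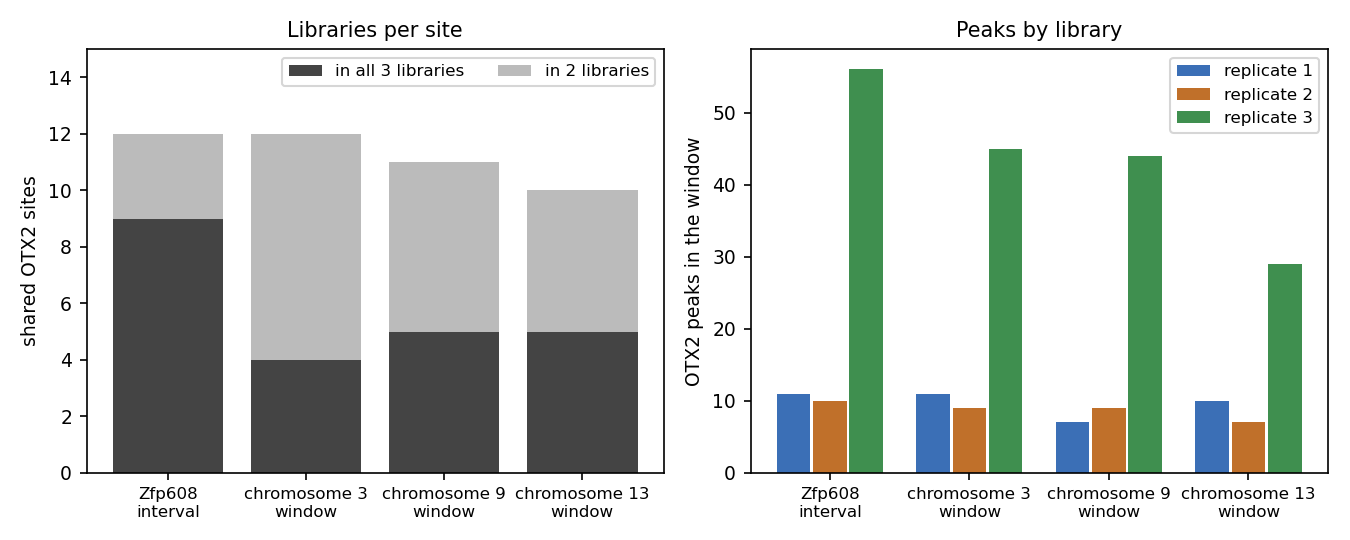
The Zfp608 interval beside the 3 next densest 1.4 Mb windows. Left, shared sites in all 3 libraries (dark) and in 2 (light); right, OTX2 peaks per replicate. The interval has 9 sites in all 3 libraries and the others 4 or 5, and it has 56 replicate 3 peaks against 45, 44 and 29.

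The 3 windows with the most shared sites elsewhere lay on chromosome 3 from 33900001 to 35300000 (12 sites), chromosome 9 from 60000001 to 61400000 (11 sites) and chromosome 13 from 83500001 to 84900000 (10 sites). All 3 libraries contributed to 9 of 12 sites in the Zfp608 interval (75%, exact 95% interval 42.8 to 94.5%). They contributed to 4 of 12 on chromosome 3 (33.3%, 9.92 to 65.1%), 5 of 11 on chromosome 9 (45.5%, 16.8 to 76.6%) and 5 of 10 on chromosome 13 (50%, 18.7 to 81.3%). Over the genome the share was 40.5% of shared sites. The windows were picked by their shared sites, so these shares are a description and their differences were not tested. Median spacing was 43.1 kb near Zfp608, 33.0 kb on chromosome 3, 94.0 kb on chromosome 9 and 114.1 kb on chromosome 13. The widest gap was 295.9 kb near Zfp608, 427.9 kb on chromosome 3, 321.7 kb on chromosome 9 and 373.6 kb on chromosome 13. The median replicate 3 rank of the shared sites was 488 near Zfp608, 1336 on chromosome 3, 506 on chromosome 9 and 561 on chromosome 13.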

How the data were processed

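Peaks were called by the authors in each library separately, and the deposited values are 1 list per library with mm9 positions and a rank counted from 1 at the best peak, per the file headers and lines. BWA and MACS 1.4 are named in the submitters' processing notes, without roles. Threshold, matched control and the basis of the ranking are not stated in the labels or headers. Ranks were read as an order within a list.

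Coordinates are 1-based mm9. OTX2 peaks sharing at least 1 bp were merged in Python 3.11.15 (numpy 2.4.6, scipy 1.17.1), and overlaps between lists in the interval were checked with bedtools 2.31.1. The merging and window counts were tested on simulated sites. Windows of 1.4 Mb were counted every 100 kb. The gene limits are rounded values, since the RefSeq table used describes GRCm38 and gave gene order only. No group comparison was tested, because the interval was chosen on these lists. The members, the interval and the comparisons were chosen with earlier results of these data known. Named are Zfp608 and its neighbours, every shared site, every control peak, the 3 best-ranked single-library peaks and the 3 next densest windows. Alternatives changed the number of libraries required, overlap, list length, peak width, control peaks, joining, assignment to the interval and replicates.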

Additional observations from a re-analysis of the deposited data

How the results depend on the processing

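The 12 shared sites numbered between 9 and 12 under 11 of 12 alternatives, and 55 when any 1 library sufficed. Leaving out each replicate gave 9 to 11 shared sites, a median spacing of 24.6 to 47.9 kb and place 1 in each case. The 9 sites in all 3 libraries numbered 8 or 9 under 6 of 7 alternatives and fell to 4 with 200 bp windows at peak centres, since peak centres of the libraries were up to 1228 bp apart. Median spacing changed from 43.1 kb to 16.45 kb with any 1 library and to 24.6 kb with lists of equal length, which was also its value without replicate 1. The interval's place among windows of its length was 1, and 10 with any 1 library, 12 with sites at control peaks kept, 15, 15 and 8 by the peaks of replicates 1, 2 and 3 alone. A place counts windows that overlap each other, at 100 kb steps, so 1 stretch can give several. The windows with more lay in 1 stretch with control-peak sites kept, 1 each for replicates 1 and 2, and 2 for replicate 3. With sites in all 3 libraries and control-peak sites kept, an alternative chosen after seeing the data, the interval's place was 1. No shared site lay below Zfp608 in the interval under 11 of 12 alternatives, and 11 sites did with any 1 library. Replicates 1 and 2 had no peak below the gene in the interval. The 11 alternatives required at least 2 libraries and could thus only give none. No paired analysis was possible because the results come from no test. Read depth is unknown, so a site missing from a list is not shown to be unbound.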
